A study of Mus musculus with 18 samples.

Results

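Gprin3, Grtp1, Sfpq, Rnf144a, Glp1r, Hpcal4 and Ankrd63 are 7 mouse genes that were far lower in lungs of irradiated, moribund mice than in lungs of untreated mice in at least 1 of 3 inbred strains, and none of them is on the marker lists of lung cell types used here. They were picked from the results of an earlier analysis of these same arrays, for their fall in A/J (Gprin3, Grtp1, Sfpq and Rnf144a), in C3H/HeJ (Rnf144a, Glp1r and Hpcal4) or in C57BL6/J (Ankrd63). In the strain that picked a gene its values are given as a description, with no test. Tests were made only in the strains that did not pick it. The array carries 16 probe sets whose annotation names 1 of these genes and no other gene, of 45037 probe sets in all, and 15 of the 16 were bright enough to be tested.

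Lung RNA was measured on 18 single-colour oligonucleotide arrays, 3 in each of 6 groups. An earlier analysis of these data had set C3H/HeJ irradiated array 3 apart by its strain markers. The C3H/HeJ values below include that array unless stated. Irradiated mice received 18 Gy to the thorax at 8 weeks of age, with the rest of the body shielded so that 3% of the beam reached it, and were killed when moribund, at 30 to 32 weeks of age in A/J, 28 to 30 weeks in C57BL6/J and 20 to 22 weeks in C3H/HeJ. That is 22 to 24, 20 to 22 and 12 to 14 weeks after the dose. The untreated controls were aged 15 to 26 weeks in all 3 strains, so irradiation goes with a greater age in A/J and C57BL6/J, and dose and age cannot be told apart there. Levels below are quantile-normalized log2(signal + 7), a difference is irradiated minus control on that scale, and an adjusted p is limma's, corrected by Benjamini-Hochberg over all 25746 probe sets tested. A probe set was called when its adjusted p was under 0.05. The lung markers Sftpc, of alveolar type 2 cells, and Ager, of type 1 cells, averaged 12.7 to 13.0 in every group. Of 7 measured markers of type 2 cells, 0 were called lower in A/J, 0 in C57BL6/J and 2 in C3H/HeJ. For 8 markers of type 1 cells these counts were 1, 0 and 3, and 0 on either list were called higher. Among all genes, taken by their brightest probe set, 8.71%, 1.59% and 9.21% were called lower. The irradiated A/J arrays showed a sign of lower RNA quality, described under Sfpq, and its part in any A/J difference was not tested.

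The 7 genes share no pathway. Glp1r encodes the class B receptor for glucagon-like peptide 1, a gut hormone, and signals through cyclic AMP. Hpcal4 is an EF-hand protein of the neuronal calcium sensor family. Gprin3 belongs to a family of proteins that bind activated G protein alpha subunits and promote neurite outgrowth. Rnf144a is a RING-between-RING ubiquitin ligase, which in human cells targets the DNA repair kinase DNA-PKcs for degradation. Grtp1 carries the TBC domain of GTPase-activating proteins for Rab GTPases, the switches of vesicle traffic. Sfpq is a nuclear RNA-binding protein that, with Nono and Pspc1, builds paraspeckles on the long RNA Neat1. Ankrd63 is an ankyrin repeat protein of little-known function.

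Rnf144a, Glp1r and Hpcal4 had lower levels in irradiated mice of each strain. Ankrd63 had them in C57BL6/J, the 1 strain whose controls were bright enough for a fall to show. The promoters of these 4 genes are printed for comparison. Each is 1 RefSeq window of 300 bases on GRCm38.p6, read 5′ to 3′ on the gene's strand. For Glp1r, Hpcal4 and Ankrd63 it holds the 250 bases before the outermost annotated start of the gene and the first 50 bases of the gene, and for Rnf144a 193 bases before that start and 107 after it. Capitals mark the motifs found. The reference is of C57BL/6J mice, and A/J and C3H/HeJ may differ from it.
Rnf144a, chr12:26415213-26415512, minus strand: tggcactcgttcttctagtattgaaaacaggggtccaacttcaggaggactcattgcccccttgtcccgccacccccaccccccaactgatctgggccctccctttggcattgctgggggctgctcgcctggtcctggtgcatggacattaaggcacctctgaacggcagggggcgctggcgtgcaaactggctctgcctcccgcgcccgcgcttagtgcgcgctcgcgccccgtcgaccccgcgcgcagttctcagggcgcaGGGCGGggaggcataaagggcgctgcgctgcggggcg
Glp1r, chr17:30901617-30901916, plus strand: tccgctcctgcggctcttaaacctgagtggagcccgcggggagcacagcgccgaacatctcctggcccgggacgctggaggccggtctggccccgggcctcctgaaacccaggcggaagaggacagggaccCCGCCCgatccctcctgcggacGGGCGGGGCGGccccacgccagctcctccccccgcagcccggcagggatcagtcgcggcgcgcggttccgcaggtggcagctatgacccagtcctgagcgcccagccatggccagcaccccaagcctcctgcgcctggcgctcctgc
Hpcal4, chr4:123183254-123183553, plus strand: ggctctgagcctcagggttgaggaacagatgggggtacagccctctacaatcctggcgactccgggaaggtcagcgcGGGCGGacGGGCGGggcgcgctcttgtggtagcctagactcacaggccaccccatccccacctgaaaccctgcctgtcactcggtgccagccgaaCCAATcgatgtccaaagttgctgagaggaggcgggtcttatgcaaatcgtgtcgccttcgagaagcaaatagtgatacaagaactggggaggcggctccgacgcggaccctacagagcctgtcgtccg
Ankrd63, chr2:118703914-118704213, minus strand: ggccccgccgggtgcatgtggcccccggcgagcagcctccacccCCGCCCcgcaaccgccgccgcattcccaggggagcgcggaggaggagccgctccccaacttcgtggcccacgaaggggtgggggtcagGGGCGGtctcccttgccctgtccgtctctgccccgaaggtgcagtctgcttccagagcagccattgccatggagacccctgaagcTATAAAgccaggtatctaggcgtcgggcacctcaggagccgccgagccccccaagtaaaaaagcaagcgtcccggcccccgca

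The motifs were searched on both strands as exact letters in all 7 windows and in 32851 RefSeq windows of the same kind. They were the TATA box (TATAAA, in 13.6% of all windows), the CCAAT box (CCAAT, 37.4%), the GC box (GGGCGG, 35.7%), the E-box (CACGTG, 7.15%) and the cyclic AMP response element (TGACGTCA, 1.79%). Of the 4 windows printed, Rnf144a holds 1 GC box, Glp1r 3, Hpcal4 2 with 1 CCAAT box, and Ankrd63 2 with 1 TATA box. Of the other 3 genes, Gprin3 has 2 GC boxes and 1 E-box, Grtp1 has 5 GC boxes, some overlapping, and Sfpq has 4 CCAAT boxes, a pair of them overlapping on opposite strands. The Gprin3 window lies like that of Glp1r, the Grtp1 window has 108 bases before the outermost start, and the Sfpq window lies wholly inside the annotated gene. No window holds the cyclic AMP element. The GC content was 48% for Sfpq and 61.7% to 73.7% for the other 6, against a median of 52.7% over all windows.

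**Figure D1:**
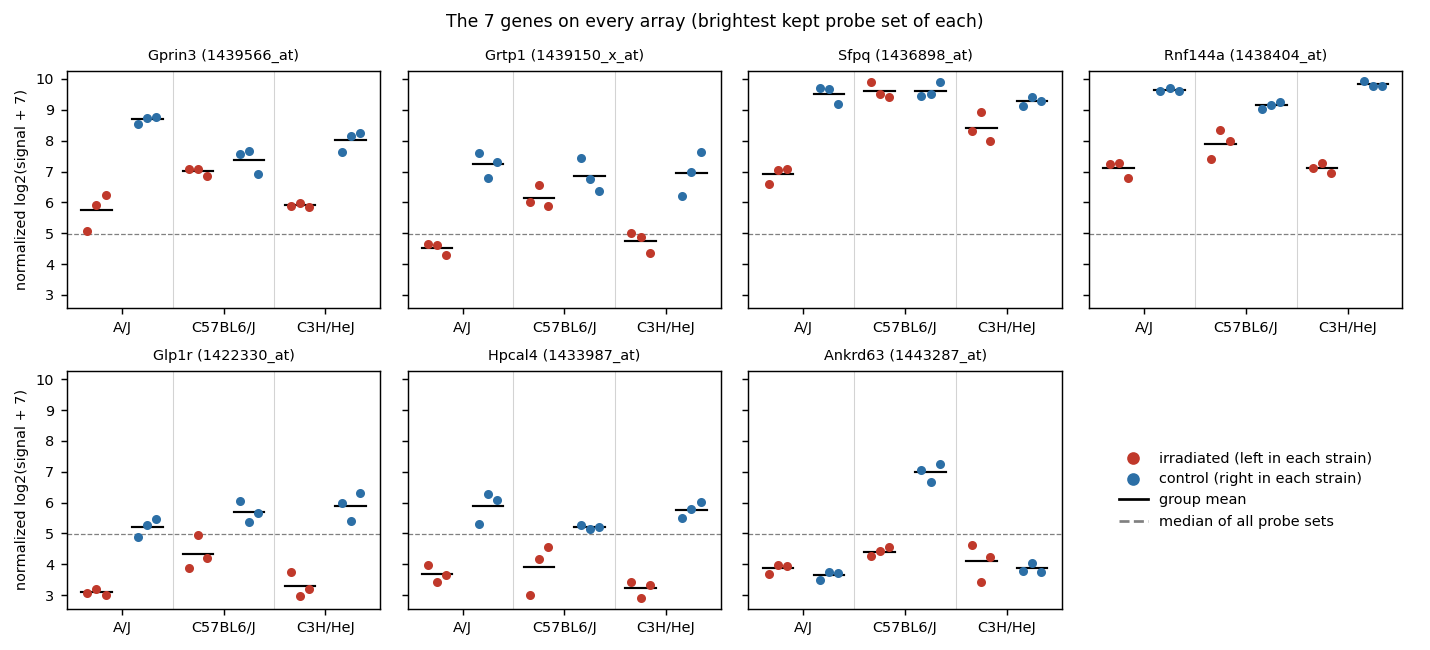
Level of the representing probe set of each gene on each array, as quantile-normalized log2(signal + 7), with irradiated arrays left of the controls in each strain. Rnf144a, Glp1r and Hpcal4 show no overlap in any strain, and Ankrd63 is high on the 3 C57BL6/J control arrays only.

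In the strains that did not pick a gene, 2 of 3 member probe sets fell in A/J, where 13.6% of all probe sets were called lower, and 3 of 14 in C57BL6/J, where 1.2% were. In C3H/HeJ, where 8.73% were called lower and 9.65% higher, 5 of 10 fell and 1 rose. The median difference over all probe sets was 0.02 in A/J, −0.01 in C57BL6/J and −0.01 in C3H/HeJ. The probe sets of Glp1r and Hpcal4 and 1421243_at of Rnf144a were bright enough to be tested through control arrays alone, and that of Ankrd63 through C57BL6/J control arrays alone, so these counts describe the probe sets and support nothing further. Ankrd63 is among those counted in A/J and C3H/HeJ, where its controls were too dim for a fall to show. Every irradiated array lay below every control array of its strain for 12 of the 15 in A/J, 7 in C57BL6/J and 11 in C3H/HeJ, against 20.7%, 10.9% and 18.6% of all probe sets. Of these, 10 in A/J, 1 in C57BL6/J and 5 in C3H/HeJ were probe sets of genes picked in that strain.

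**Figure D2:**
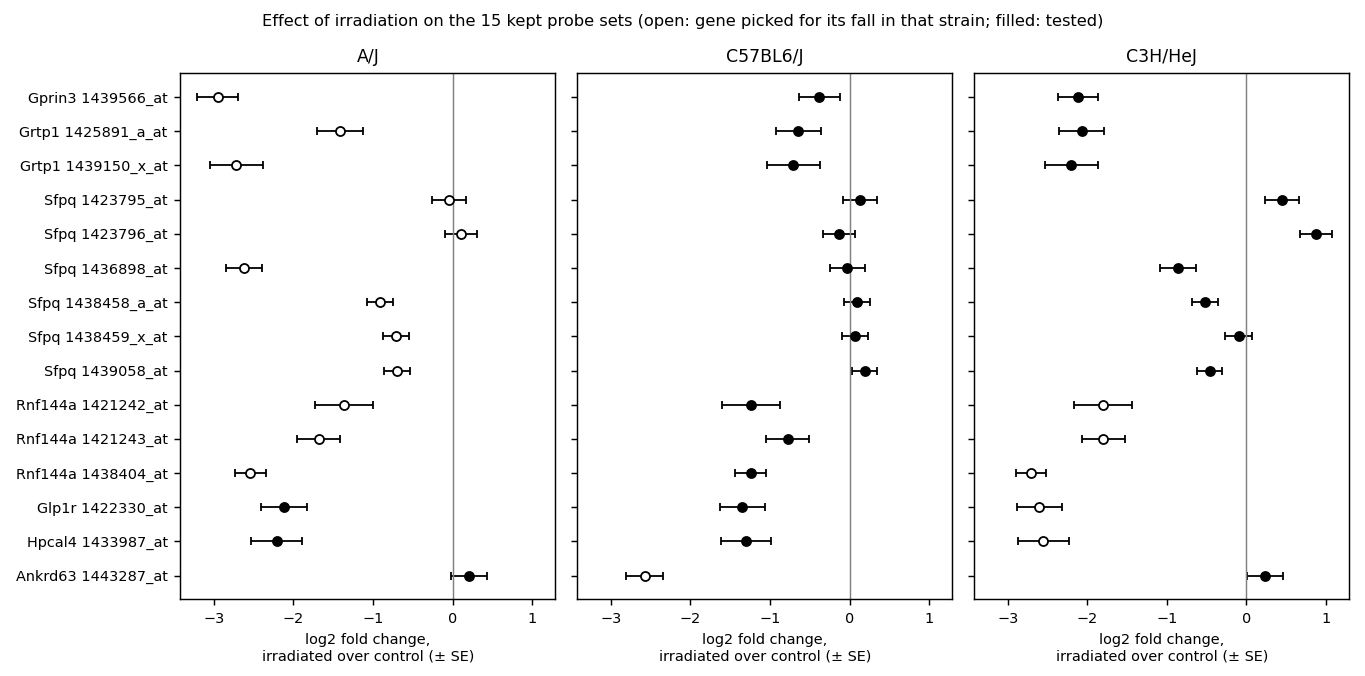
Difference in level, irradiated minus control, with its standard error for each tested member probe set in A/J, C57BL6/J and C3H/HeJ. Open symbols mark the strain that picked the gene and filled symbols the strains where it was tested. Glp1r was lower by 2.12 in A/J and 1.35 in C57BL6/J.

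Glp1r, the incretin receptor, passed the test for a fall in both strains that did not pick it, on a probe set that was above the brightness filter on control arrays alone. Probe set 1422330_at, the 1 probe set of the gene, read 3.06, 3.21 and 3.02 in irradiated A/J lung, against 4.89, 5.28 and 5.47 in A/J controls. In C57BL6/J it read 3.89, 4.95 and 4.21 in irradiated lung, against 6.05, 5.36 and 5.66 in controls. In C3H/HeJ it read 3.75, 2.96 and 3.19 in irradiated lung, against 5.99, 5.40 and 6.31 in controls. The groups did not overlap in any strain, and the irradiated C57BL6/J arrays were the highest of the irradiated ones. The difference was −2.12 ± 0.29 (SE, n = 3 each) in A/J, a level 4.34-fold lower (adjusted p = 8.36e-05). In C57BL6/J the difference was −1.35 ± 0.29, 2.54-fold lower (adjusted p = 0.0197). In C3H/HeJ, which picked the gene, it was −2.60. The deposited signal had a median of 2.1 in irradiated A/J lung, against 32.5 in A/J controls, so the size of the fall depends on the pseudocount, with an A/J difference of −3.62 at a pseudocount of 1 and −0.90 at 32. With no brightness filter the adjusted p was 0.000232 in A/J and 0.0445 in C57BL6/J. The C57BL6/J call was lost without C57BL6/J irradiated array 1, control array 1 or control array 3 (adjusted p 0.0614 to 0.107), with a pseudocount of 1 (0.0677), with only the groups compared (0.102) and without the 3 keratin-rich arrays described under Ankrd63 (difference −1.02, adjusted p = 0.544). The C57BL6/J effect differed from that in A/J by 0.77 ± 0.40 (95% interval −0.09 to 1.63, adjusted p = 0.273), which was not called.

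Hpcal4, the calcium sensor, was also called lower in both strains that did not pick it. The C57BL6/J call was lost in many settings, among them that with no brightness filter. Its probe set too was above that filter on control arrays alone. Its probe set 1433987_at read 3.98, 3.44 and 3.64 in irradiated A/J lung, against 5.30, 6.29 and 6.10 in controls. In C57BL6/J the levels were 3.02, 4.16 and 4.56 in irradiated lung, against 5.26, 5.16 and 5.22 in controls. In C3H/HeJ they were 3.42, 2.91 and 3.33 in irradiated lung, against 5.51, 5.80 and 6.01 in controls. No irradiated array reached a control of its strain, and the 3 irradiated C57BL6/J arrays were the most spread (SD 0.80, against 0.05 in C57BL6/J controls). Hpcal4 fell by 2.21 ± 0.32 in A/J, 4.63-fold (adjusted p = 0.00014), and by 1.30 ± 0.32 in C57BL6/J, 2.46-fold (adjusted p = 0.0382). The C3H/HeJ difference, which picked the gene, was −2.55. These sizes depend on the pseudocount, with −2.98 in A/J and −2.03 in C57BL6/J at a pseudocount of 1 and −1.18 and −0.60 at 32. With no brightness filter the adjusted p was 0.000372 in A/J and 0.083 in C57BL6/J. The A/J call held in all 28 settings, but the part of RNA quality on the irradiated A/J arrays was not tested. The C57BL6/J call held in 16 of the 28. It was lost when any 1 C57BL6/J array other than irradiated array 3 was left out (differences of −1.43 to −0.85) and without C3H/HeJ control array 2. Other losses came with only the groups compared (adjusted p = 0.156), a pseudocount of 1 (0.0988), array weights (0.0549) and median centring (0.0514). Without the 3 keratin-rich arrays described under Ankrd63, the C57BL6/J difference was −1.25. The effects in C57BL6/J and A/J differed by 0.91 ± 0.45 (95% interval −0.04 to 1.87, adjusted p = 0.242), not called.

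Rnf144a, the ubiquitin ligase, was picked in A/J and C3H/HeJ both, and it fell in C57BL6/J by its main probe set. Its main probe set 1438404_at read 7.25, 7.28 and 6.79 in irradiated A/J lung, against 9.62, 9.70 and 9.62 in A/J controls. In C3H/HeJ it read 7.11, 7.29 and 6.95 in irradiated lung, against 9.92, 9.78 and 9.77 in controls. In C57BL6/J, the 1 strain left for a test, it read 7.39, 8.33 and 7.99 in irradiated lung, against 9.04, 9.15 and 9.25 in controls. Controls of a strain lay within a narrow band, and every irradiated array was below it. The C57BL6/J difference was −1.24 ± 0.19, a 2.37-fold fall (adjusted p = 0.00256). That call was lost with no scaling (adjusted p = 0.0519), with only the groups compared (0.0781) and without the 3 keratin-rich arrays (0.134). The picked differences were −2.54 in A/J and −2.71 in C3H/HeJ. The dimmer probe sets lay the same way without passing the test in C57BL6/J. Probe set 1421242_at read 3.46, 5.07 and 5.51 in irradiated C57BL6/J lung, against 5.86, 5.98 and 5.92 in controls (difference −1.24 ± 0.36, 95% interval −2.01 to −0.47, adjusted p = 0.0806). Probe set 1421243_at read 4.03, 3.68 and 4.50 in irradiated C57BL6/J lung, against 5.10, 4.51 and 4.93 in controls (difference −0.78 ± 0.27, adjusted p = 0.143). In the strains that picked the gene, these dimmer probe sets differed by −1.36 and −1.68 in A/J and by −1.80 each in C3H/HeJ.

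Markers of endothelium, the lining of vessels, were lower in the same arrays as these 3 genes. Of 20 endothelial markers, all of them measured and none at 0, 10 fell and 2 rose in A/J, 5 fell and 0 rose in C57BL6/J, and 14 fell and 0 rose in C3H/HeJ. Over all genes, taken by their brightest probe set, 8.71%, 1.59% and 9.21% were called lower in A/J, C57BL6/J and C3H/HeJ. The shares called higher were 14.7%, 2.2% and 11.7%. The list was chosen with earlier results of these data known, so its counts are a description and not support for a cause. The medians of the list were −0.56, −0.51 and −0.96. The markers' summed normalized signal was 11752 to 15156 in irradiated A/J lung, against 20907 to 22580 in controls. In C57BL6/J it was 10011 to 13997 in irradiated lung, against 17548 to 18455 in controls. In C3H/HeJ it was 10702 to 12062 in irradiated lung, against 23888 to 25220 in controls. The angiopoietin receptor Tek fell in each strain, with differences of −2.14 in A/J, −1.68 in C57BL6/J and −2.74 in C3H/HeJ. Pecam1, an endothelial adhesion molecule, fell in C3H/HeJ (difference −0.56, adjusted p = 0.0192) but differed by −0.32 in A/J and 0.00 in C57BL6/J, neither called, and Cdh5, the cadherin of endothelial junctions, was called in no strain. With no scaling of the arrays, 5 markers were called lower and 3 higher in A/J, and 6 lower and 3 higher in C3H/HeJ. Their part in the levels of Glp1r, Hpcal4 and Rnf144a was not tested, and in whole lung fewer cells of a type cannot be told apart from less RNA per cell.

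Hpcal4 and the Gprin family are best known from neurons, whose markers were mostly too dim to measure. Of 14 markers of neurons and glia with a probe set of their own, 5 were bright enough to be measured, while Snap25, Syt1, Tubb3 and Gfap were among the 9 that were not. Their summed signal was 447 to 524 in irradiated A/J lung, against 542 to 588 in A/J controls. In C57BL6/J the sum was 320 to 489 in irradiated lung, against 408 to 521 in controls, and in C3H/HeJ 451 to 528 in irradiated lung, against 433 to 501 in controls. Of the 5, Uchl1, a ubiquitin hydrolase of neurons, rose in A/J by 0.77 and in C57BL6/J by 0.66, and none fell in any strain.

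**Figure D3:**
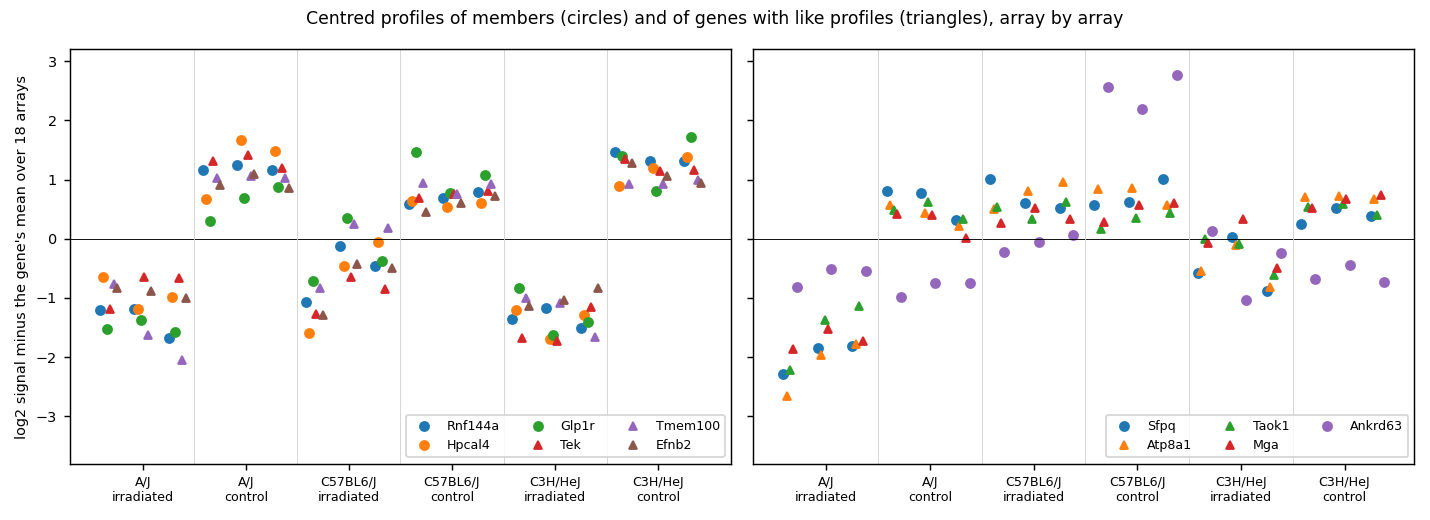
Level minus the gene's own mean over the 18 arrays, on the log2 scale, with 1 point for each array and irradiated groups left of their controls. Circles are members and triangles are genes of like profile. Rnf144a, Hpcal4 and Glp1r lie with Tek, Tmem100 and Efnb2 on the left, and Sfpq lies with Atp8a1, Taok1 and Mga on the right, where Ankrd63 stands high in C57BL6/J controls.

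Likeness of profile was measured as the root-mean-square difference over the 18 arrays between genes centred on their own means, among 12412 genes. Nearest to Rnf144a were Efnb2 (0.31), a ligand of arterial endothelium, Tmem100 (0.34), a membrane protein of endothelium, and Tek (0.37). Nearest to Hpcal4 were Efnb2 (0.35), the semaphorin Sema3g (0.37) and Tek (0.38). Glp1r lay nearest to Tmem100 (0.43), the receptor Gpr182 (0.44) and Rnf144a (0.44). The members' own profiles had a root-mean-square deviation of 1.01 to 1.17. Tek and Tmem100 are on the endothelial marker list, which was chosen with earlier results of these data known. Likeness was ranked on the same arrays that picked the genes and is a description.

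Gprin3, the G protein partner, fell in C3H/HeJ, and its level in C57BL6/J changed by an amount within the spread of the arrays. Probe set 1439566_at read 5.87, 5.98 and 5.85 in irradiated C3H/HeJ lung, against 7.63, 8.16 and 8.25 in controls. In C57BL6/J it read 7.07, 7.09 and 6.86 in irradiated lung, against 7.56, 7.68 and 6.92 in controls. In A/J, which picked the gene, it read 5.07, 5.91 and 6.24 in irradiated lung, against 8.54, 8.75 and 8.78 in controls. The groups overlapped in C57BL6/J alone. The C3H/HeJ difference was −2.12 ± 0.25, a 4.34-fold fall (adjusted p = 5.24e-05), and it was called in all 28 settings. In C57BL6/J the difference was −0.38 ± 0.25 (95% interval −0.91 to 0.16, adjusted p = 0.5). The A/J difference was −2.95, or 7.74-fold lower.

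Of 12 tests of the difference between the effects in 2 strains, 1 was called, for Gprin3 in C3H/HeJ against C57BL6/J, and 7 had an unadjusted p under 0.05. Over all probe sets 0.928% were called for that pair of strains, 8.29% for C57BL6/J against A/J and 1.37% for C3H/HeJ against A/J. The 12 tests include Ankrd63 in C3H/HeJ against A/J, where its controls were too dim for a fall to show. The effect on Gprin3 in C3H/HeJ minus that in C57BL6/J was −1.74 ± 0.36 (95% interval −2.50 to −0.98, adjusted p = 0.0282). The call was kept in 15 of 28 settings, with an adjusted p of 0.00639 to 0.282. It was lost without any 1 of C57BL6/J irradiated arrays 2 and 3, C57BL6/J control arrays 1 and 3, C3H/HeJ irradiated arrays 1, 2 and 3 and C3H/HeJ control arrays 2 and 3, with a difference of −1.83 to −1.51. The other probe set, 1430834_at, was too dim to be tested. It read 2.88, 3.19 and 3.78 in irradiated A/J lung, against 4.67, 4.49 and 4.15 in controls, 3.14, 3.41 and 3.64 in irradiated C57BL6/J lung, against 3.74, 4.48 and 3.61 in controls, and 3.29, 2.96 and 3.38 in irradiated C3H/HeJ lung, against 4.22, 3.96 and 4.19 in controls. Its groups overlapped in C57BL6/J alone, as those of the brighter probe set did.

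Grtp1, the Rab regulator, fell in C3H/HeJ by both of its probe sets. Probe set 1439150_x_at, whose suffix marks probes that may also match other sequences, read 5.01, 4.87 and 4.36 in irradiated C3H/HeJ lung, against 6.22, 6.98 and 7.64 in controls. Probe set 1425891_a_at read 4.32, 5.09 and 4.23 in irradiated C3H/HeJ lung, against 6.90, 6.28 and 6.68 in controls. Neither pair of groups overlapped. The differences were −2.20 ± 0.33 (4.60-fold lower, adjusted p = 0.000338) and −2.07 ± 0.29 (4.20-fold lower, adjusted p = 0.000163), and both calls held in every setting run.

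In C57BL6/J the 2 probe sets of Grtp1 were lower without passing the test. For 1439150_x_at the levels were 6.0, 6.55 and 5.89 in irradiated lung, against 7.44, 6.75 and 6.37 in controls (difference −0.70, 95% interval −1.41 to 0.00, adjusted p = 0.302). For 1425891_a_at they were 5.13, 5.78 and 5.70 in irradiated lung, against 6.40, 5.96 and 6.17 in controls (difference −0.64, adjusted p = 0.266). The groups overlapped for the first and not for the second. In A/J, which picked the gene, 1439150_x_at read 4.65, 4.62 and 4.29 in irradiated lung, against 7.59, 6.80 and 7.32 in controls. There 1425891_a_at read 5.40, 4.96 and 4.29 in irradiated lung, against 6.56, 6.0 and 6.33 in controls, a smaller gap. The C3H/HeJ effects minus the C57BL6/J ones were −1.50 (adjusted p = 0.147) and −1.43 (adjusted p = 0.104), and neither was called. Genes of like profile were the unnamed locus Gm33248 (0.40), the transcription factor gene Tox3 (0.48) and Grtp1 itself (0.49) for Gprin3, and Tmem100 (0.42), the lipid-droplet gene Hilpda (0.46) and the endothelial receptor Acvrl1 (0.47) for Grtp1.

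Sfpq, the paraspeckle protein, gave different answers on its 6 probe sets. Probe set 1436898_at, which picked the gene in A/J, read 6.60, 7.05 and 7.07 in irradiated A/J lung, against 9.70, 9.67 and 9.20 in A/J controls. In C3H/HeJ it read 8.31, 8.93 and 8.00 in irradiated lung, against 9.14, 9.41 and 9.27 in controls. In C57BL6/J it read 9.90, 9.50 and 9.41 in irradiated lung, against 9.46, 9.51 and 9.90 in controls. The groups were far apart in A/J, close but separate in C3H/HeJ and overlapping in C57BL6/J. The difference was −2.62 in A/J, −0.86 ± 0.22 in C3H/HeJ (adjusted p = 0.0138) and −0.03 ± 0.22 in C57BL6/J (95% interval −0.50 to 0.45, adjusted p = 0.974). The C3H/HeJ call was lost without C3H/HeJ irradiated array 3 (difference −0.66), with no scaling (−0.14) and with arrays centred on their medians (−0.51).

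**Figure D4:**
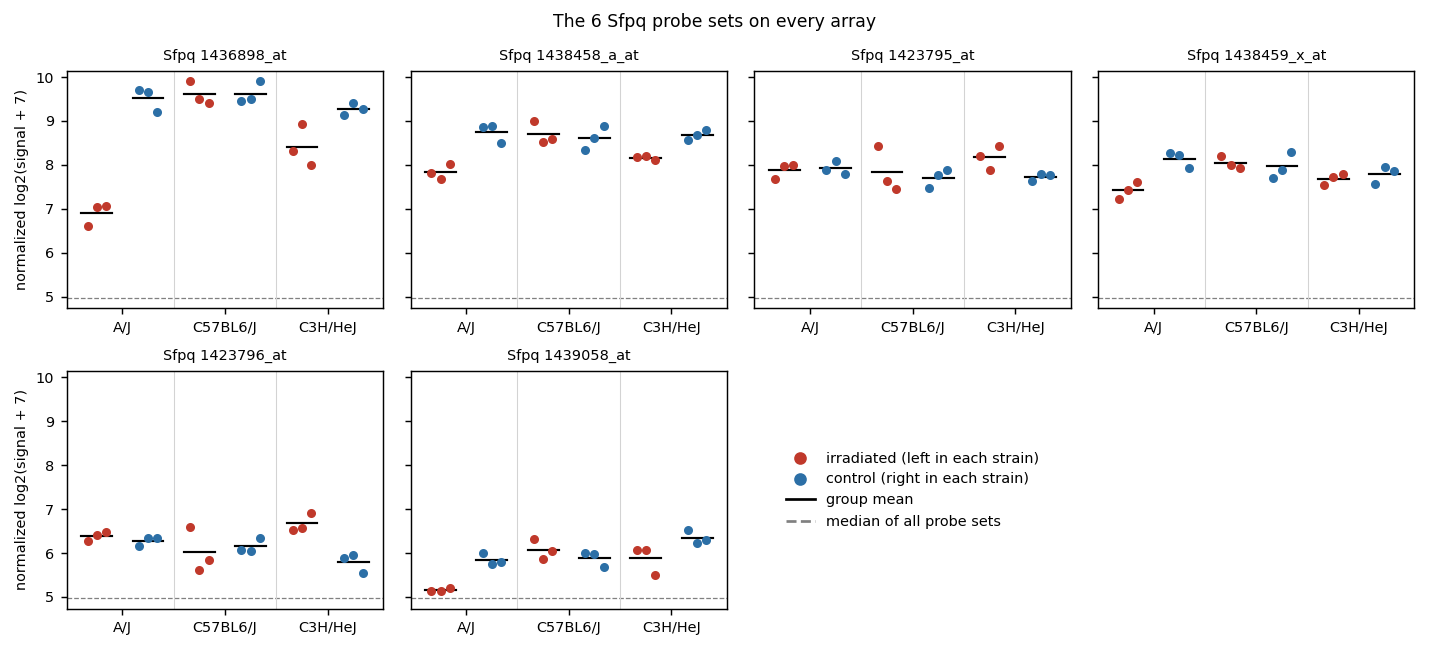
Level of each of the 6 Sfpq probe sets on each array, as quantile-normalized log2(signal + 7), with irradiated arrays left of controls in each strain. Probe set 1436898_at drops in irradiated A/J lung, while 1423795_at and 1423796_at lie at like levels there in irradiated and control arrays.

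The other Sfpq probe sets moved less in A/J. Probe sets 1438458_a_at, 1438459_x_at and 1439058_at differed by −0.91, −0.71 and −0.70 in A/J, with all irradiated arrays below all controls. Probe sets 1423795_at and 1423796_at differed by −0.04 and 0.10 there, with overlap. In C3H/HeJ, 1438458_a_at read 8.18, 8.20 and 8.10 in irradiated lung, against 8.57, 8.68 and 8.80 in controls, and fell by 0.52 ± 0.16 (adjusted p = 0.0322). That difference turned to 0.18 (adjusted p = 0.675) with no scaling, and the call was lost without any 1 of C3H/HeJ irradiated arrays 1, 2 and 3 and control arrays 2 and 3. Probe set 1423796_at went the other way, with 6.52, 6.58 and 6.92 in irradiated C3H/HeJ lung, against 5.89, 5.96 and 5.54 in controls. It rose by 0.88 ± 0.20 (adjusted p = 0.00695) and was called in all 27 settings. Probe sets 1438459_x_at (−0.10), 1439058_at (−0.46, adjusted p = 0.0535) and 1423795_at (0.45, adjusted p = 0.157) were not called in C3H/HeJ. In C57BL6/J no Sfpq probe set was called, with differences of −0.13 to 0.19. Where in the transcripts the 6 probe sets lie was not used here.

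The irradiated A/J arrays stood apart in a sign of RNA quality. Their ratio of 5′ to 3′ beta-actin signal was 0.413, 0.551 and 0.528, against 0.742, 0.730 and 0.735 in A/J controls and 0.677 to 0.766 on the arrays of the other strains. The same ratio for Gapdh was 0.294, 0.876 and 1.03 in irradiated A/J lung, against 1.29, 1.30 and 1.14 in A/J controls. The part of RNA quality in the A/J levels of Sfpq, of the other members and of the marker and family lists was not tested. Nearest to Sfpq over the 18 arrays were the phospholipid flippase gene Atp8a1 (0.29), the kinase gene Taok1 (0.35) and Mga (0.35), a partner of Max in transcription, with A/J differences of −2.54, −2.06 and −1.99.

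Ankrd63, the ankyrin repeat gene, stood high in 1 group of the 6. Its probe set 1443287_at read 4.26, 4.43 and 4.55 in irradiated C57BL6/J lung, against 7.05, 6.68 and 7.24 in C57BL6/J controls. In A/J it read 3.68, 3.98 and 3.94 in irradiated lung, against 3.49, 3.75 and 3.73 in controls. In C3H/HeJ it read 4.63, 3.44 and 4.25 in irradiated lung, against 3.80, 4.04 and 3.76 in controls. Only the C57BL6/J control arrays were above the overall median of 4.98, and the groups overlapped in the other strains. The C57BL6/J difference, which picked the gene, was −2.57, or 5.96-fold lower. In A/J the difference was 0.21 ± 0.23 (95% interval −0.28 to 0.69), and in C3H/HeJ 0.24 ± 0.23 (−0.25 to 0.72), neither called. The deposited signal of the controls there had medians of 5.6 and 6.1, near the lower end, so these tests could not have shown a fall. The effects in those strains differed by 0.03 ± 0.32, and their controls by 0.21 ± 0.23, neither called and both limited in the same way.

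A pair of the C57BL6/J control arrays, 1 and 3, and A/J irradiated array 3 were high in keratins of squamous epithelium. The summed signal of 10 squamous markers was 88 to 135 in irradiated C57BL6/J lung, against 193 to 6317 in C57BL6/J controls, and 199 to 3842 in irradiated A/J lung, against 100 to 145 in A/J controls. Ankrd63 read 6.68 on C57BL6/J control array 2, which is not among them, against 7.05 and 7.24 on arrays 1 and 3, and without the 3 arrays its C57BL6/J difference was −2.27. The part of the keratin-rich tissue in its level was not tested. Genes nearest to Ankrd63 were less alike than those of other members. They were Bcan, which encodes brevican of brain matrix (0.65), the transcription factor gene Sox11 (0.68) and the platelet receptor gene Clec1b (0.69).

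Between untreated strains, 0 of 12 member tests were called, 3 having an unadjusted p under 0.05 in limma, the 1 tool run, while 10.1% of all probe sets were called between C3H/HeJ and C57BL6/J controls, 10.1% between C57BL6/J and A/J and 4.37% between C3H/HeJ and A/J. Untreated Gprin3 was higher in C3H/HeJ than in C57BL6/J by 0.63 (95% interval 0.10 to 1.17, adjusted p = 0.134). Untreated Hpcal4 was lower in C57BL6/J than in A/J by a difference of −0.68 (adjusted p = 0.213), and Glp1r was higher by 0.48 (adjusted p = 0.35). The 12 tests leave out pairs with a strain that picked the gene. For Ankrd63, picked in C57BL6/J, untreated C57BL6/J minus A/J was 3.34 and untreated C3H/HeJ minus C57BL6/J was −3.12, both untested.

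Relatives of the 7 genes were counted by family. Of the GPRIN family, Gprin1 with 3 probe sets and Gprin2 with 1 were all too dim to be tested. None of 12 RING-between-RING ligases measured was called in any strain by its brightest probe set. The closest relative, Rnf144b, differed by 0.24, −0.14 and −0.19 in A/J, C57BL6/J and C3H/HeJ, though its dimmer probe set 1425282_at fell in A/J by 0.57 (adjusted p = 0.0286). The medians of this list were 0.18, 0.07 and 0.03, beside 0.09, −0.01 and 0.01 over all genes, and with no scaling 2 of the ligases were called higher in C3H/HeJ. With no scaling the median of all probe sets itself was 0.46, 0.06 and 0.56. Of 36 TBC-domain genes, 1 fell and 10 rose in A/J, 0 fell and 1 rose in C57BL6/J, and 2 fell and 4 rose in C3H/HeJ. Over all genes 8.71%, 1.59% and 9.21% were called lower and 14.7%, 2.2% and 11.7% higher in A/J, C57BL6/J and C3H/HeJ. Sgsm3 rose by 1.10 in A/J and 1.69 in C3H/HeJ, Tbc1d1, which acts in glucose transporter traffic, by 1.02 in A/J, and Tbc1d9 by 0.60, 0.80 and 0.76 in A/J, C57BL6/J and C3H/HeJ. Tbc1d2 rose in A/J by 0.98 (adjusted p = 0.0355). The medians were 0.22, 0.02 and 0.02, and with no scaling 0 were called lower in each strain and 10, 0 and 11 higher.

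Of 24 genes listed as paraspeckle proteins and RNAs, 7 fell and 2 rose in A/J, 0 changed in C57BL6/J and 2 fell in C3H/HeJ. The medians were −0.23, −0.02 and −0.05. Both the 24 and the 7 include Malat1, a nuclear long RNA that is not itself part of paraspeckles. The shares called over all genes were 8.71%, 1.59% and 9.21% lower and 14.7%, 2.2% and 11.7% higher in A/J, C57BL6/J and C3H/HeJ. The irradiated A/J arrays are those with actin ratios of 0.413, 0.551 and 0.528, whose part in the paraspeckle counts was not tested. With no scaling the A/J counts were 2 lower and 2 higher, and C3H/HeJ had 0 lower and 3 higher. The partners of Sfpq, Nono and Pspc1, were not called in any strain by their brightest probe sets, with A/J differences of −0.07 and 0.12. A dimmer Nono probe set, 1431239_at, fell in A/J by 0.94 (adjusted p = 0.000766). The nuclear long RNA Malat1 fell by 2.12 in A/J (adjusted p = 0.00333) on 1438403_s_at and differed by 0.06 in C57BL6/J and −0.14 in C3H/HeJ. Its 7 probe sets ran in A/J from −2.90 to 0.49, and 1452378_at and 1427285_s_at were also lower in C3H/HeJ, with differences of −1.03 (adjusted p = 0.00869) and −0.65 (adjusted p = 0.0359). Taf15, an RNA-binding protein of the FET family, fell by 1.53 in A/J, and the splicing proteins Rbmx and Srsf10 had differences of −0.65 and −0.53 there, both called, none of the 3 being called in C57BL6/J or C3H/HeJ.

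Of 4 measured neuronal calcium sensors, 1 fell in A/J and 1 in C3H/HeJ, and both were Ncald, neurocalcin delta, with differences of −1.53 (adjusted p = 1.56e-05) and −1.35 (adjusted p = 6.78e-05). In C57BL6/J Ncald differed by −0.41 (adjusted p = 0.215). Hpcal1, the nearest relative by name, differed by 0.19, 0.11 and −0.03 in A/J, C57BL6/J and C3H/HeJ, and Vsnl1 by −0.40, −0.48 and −0.49, none called on the brightest probe set. The second probe set of Vsnl1, 1450055_at, fell in A/J (difference −0.70, adjusted p = 0.00333). The medians of the 4 were −0.11, −0.15 and −0.26. Among all genes 8.71%, 1.59% and 9.21% were called lower in A/J, C57BL6/J and C3H/HeJ.

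**Figure D5:**
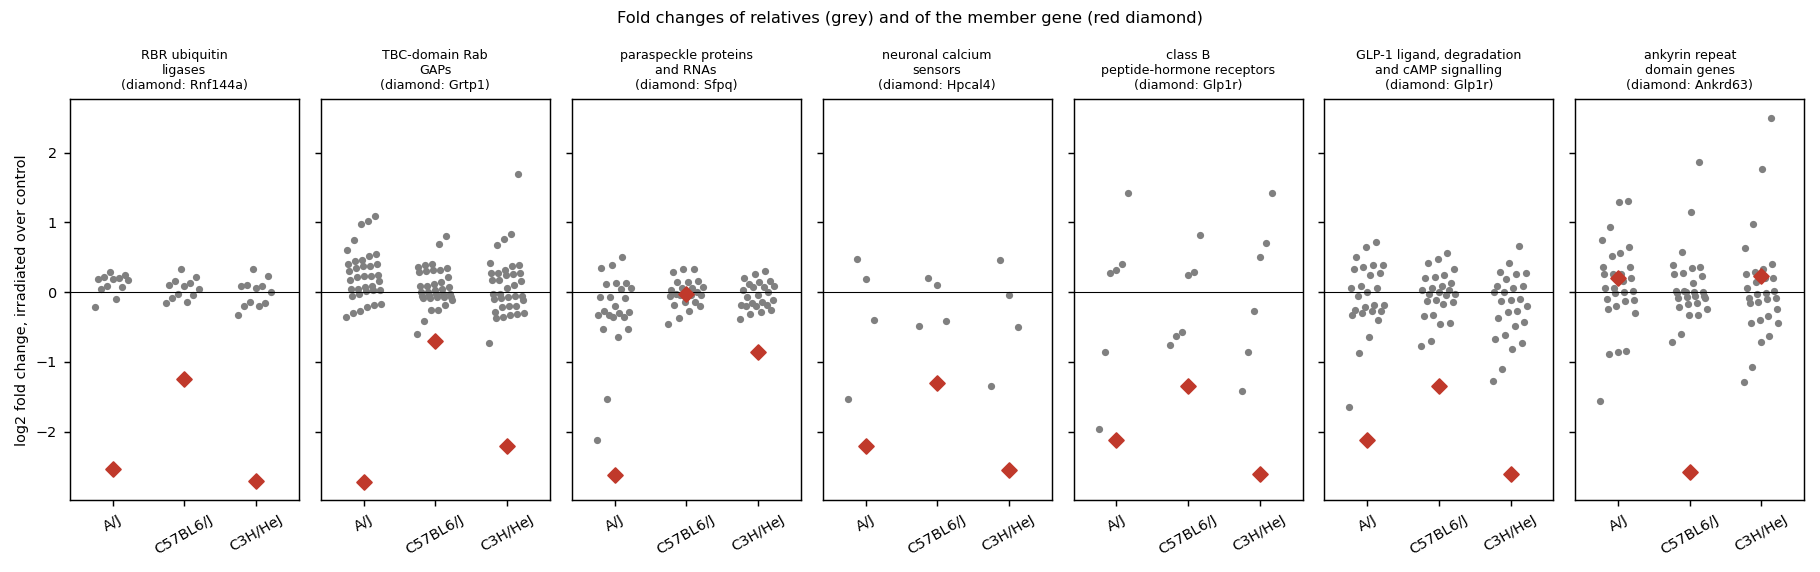
Difference in level, irradiated minus control, on the log2 scale, for each measured relative of the members in A/J, C57BL6/J and C3H/HeJ, with 1 point for each gene and a red diamond for the member. Most relatives lie near 0, while Ncald lies towards Hpcal4 and Calcrl towards Glp1r in A/J and C3H/HeJ. Ankrd33b is low in those strains too, but its member Ankrd63 lies near 0 there.

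Of 6 measured class B receptors other than Glp1r, 2 fell and 1 rose in A/J, 1 fell and 1 rose in C57BL6/J, and 2 fell and 1 rose in C3H/HeJ, with medians of 0.30, −0.17 and 0.12. The shares over all genes were 8.71%, 1.59% and 9.21% lower and 14.7%, 2.2% and 11.7% higher. Calcrl, the adrenomedullin receptor and also 1 of the endothelial markers, fell in each strain, with differences of −1.96 in A/J, −0.63 in C57BL6/J and −1.42 in C3H/HeJ. Pth1r, the parathyroid hormone receptor, rose by 1.43 in A/J and 1.42 in C3H/HeJ. Vipr2, a receptor of vasoactive intestinal peptide, fell by 0.86 in A/J and by 0.86 in C3H/HeJ and rose by 0.82 in C57BL6/J. The gene of the ligand, Gcg, was too dim to be tested, and Glp2r was not measured.

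Of 26 genes of GLP-1 degradation and cyclic AMP signalling, 4 fell and 3 rose in A/J, 1 fell in C57BL6/J, and 7 fell and 2 rose in C3H/HeJ, with medians of −0.03, −0.01 and −0.12. All genes had 8.71%, 1.59% and 9.21% called lower and 14.7%, 2.2% and 11.7% higher in A/J, C57BL6/J and C3H/HeJ. Both peptidases that cut the hormone fell, Dpp4 with differences of −0.87 in A/J and −0.49 in C3H/HeJ, and Mme, neprilysin, with −1.65 in A/J and −1.09 in C3H/HeJ. Among adenylyl cyclases, which make cyclic AMP, Adcy8 fell in C3H/HeJ by 1.28 and Adcy4 fell by 0.77 in C57BL6/J and 0.61 in C3H/HeJ. In A/J, however, Adcy2 rose by 0.65 and Adcy6 by 0.36. Arrb2, also on the list, rose by 0.72 in A/J and 0.66 in C3H/HeJ. With no scaling the list had 1 lower and 4 higher in A/J and 0 lower and 6 higher in C3H/HeJ.

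Of 29 ankyrin repeat domain genes, 4 fell and 6 rose in A/J, 2 fell and 1 rose in C57BL6/J, and 5 fell and 3 rose in C3H/HeJ. Over all genes the shares were 8.71%, 1.59% and 9.21% lower and 14.7%, 2.2% and 11.7% higher. Ankrd33b fell in each strain, with differences of −1.56, −0.60 and −1.29 in A/J, C57BL6/J and C3H/HeJ, and Ankrd50 fell in A/J (−0.89) and C3H/HeJ (−1.07). Ankrd37, a hypoxia-responsive gene, rose by 1.30, 1.87 and 1.77, and Ankrd34b rose by 1.31 in A/J and 2.50 in C3H/HeJ. The medians were 0.06, 0.00 and −0.03, and with no scaling, over the 28 then measured, 1 was called lower and 6 higher in A/J and 0 lower and 7 higher in C3H/HeJ.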

How the data were processed

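Each array was deposited as linear intensity values of 45101 probe sets. MAS5 is named in the submitters' processing notes, with no version. The authors' later steps are not given in the sources used here. Array medians ranged from 14.8 to 39.7, so log2(intensity + 7) was quantile-normalized without the 64 control probe sets, 7 being the 25th percentile of the deposited values, rounded. Probe sets above the overall median on at least 3 of 18 arrays were kept (25746). They were fitted with limma 3.58.1 in R 4.3.3, with 6 group means and 12 residual degrees of freedom, and p-values were two-sided and adjusted by Benjamini-Hochberg over all of them. The fit was tested on simulated data. No sample's values were imputed or dropped.

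A probe set names a gene only where the platform annotation gives 1 gene (34958 of 35890 annotated). A gene is represented by its brightest kept probe set. The genes, family lists and marker lists were chosen with earlier results of these data known. Named were all member probe sets, the 3 genes nearest in profile, up to 4 called relatives with the largest change in any strain and the closest paralogs. Neat1, Adcy2, Adcy6, Arrb2 and the second probe sets of Nono, Rnf144b, Vsnl1 and Malat1 were named after their values were seen. Same-numbered arrays did not deviate together (correlations −0.09 to 0.04). No arrays were duplicates. Per the labels, irradiated arrays came from 3 mice a strain, and controls are called samples from mice, so p-values measure the spread between these samples.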

Additional observations from a re-analysis of the deposited data

Results flagged for a closer look

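The effect of irradiation on Gprin3 (1439566_at) was called stronger in C3H/HeJ than in C57BL6/J, with a difference of effects of −1.74 (adjusted p = 0.0282 in limma). It stands here because the test of that difference was passed in the main setting. The call was kept in 15 of 28 settings. It was lost with no scaling (adjusted p = 0.282), with median centring (0.0554), with no filter (0.0679) and without most single arrays of the 2 strains. All 3 irradiated C3H/HeJ arrays were below all C3H/HeJ controls, while the C57BL6/J groups overlapped.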

How the results depend on the processing

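Member probe sets called lower in A/J numbered 2 of 3 under every alternative run. The 2, of Glp1r and Hpcal4, were above the brightness filter on control arrays alone. The other was of Ankrd63, whose A/J controls were too dim for a fall to show. This count is therefore a description and supports nothing further. The part of RNA quality in the A/J calls was not tested. In C3H/HeJ, 5 member probe sets were called lower, of Gprin3, Grtp1 and Sfpq. They became 3 with no scaling and 3 with arrays centred on their medians. With 1 probe set per gene, which leaves out the further ones of Grtp1 and Sfpq, 3 of 4 tested were called lower. The count ranged from 3 to 6 as each array was left out. It was 3 without C3H/HeJ irradiated array 3, which an earlier analysis of these data had set apart by its strain markers. In C57BL6/J, 3 became 1 with a pseudocount of 1, 0 when only the groups compared were fitted and 0 once the 3 keratin-rich arrays were left out (the 1 C57BL6/J control that remains was taken to have the spread of the other groups), and ranged from 1 to 4 as each array was left out, with 1 without C57BL6/J irradiated array 1, control array 1 or control array 3. The 1 difference of effects became 0 with no scaling, with median centring, with no filter and without the 3 arrays, and ranged from 0 to 3, with 3 without C57BL6/J irradiated array 1. The 0 differences between untreated strains became 1 with array weights and ranged from 0 to 1. The 1 sign that reversed was Sfpq 1438458_a_at in C3H/HeJ, at 0.18 with no scaling. The causes were not tested.

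With the replicate number as a block, the counts were 2 in A/J, 3 in C57BL6/J, 6 in C3H/HeJ, 1 difference of effects and 0 between untreated strains, and the numbers do not pair the samples. The median of all probe sets was 0.46, 0.06 and 0.56 in A/J, C57BL6/J and C3H/HeJ with no scaling and 0.23, 0.01 and 0.18 with median centring. With no scaling 816 probe sets were called lower and 3788 higher in A/J and 143 lower and 5562 higher in C3H/HeJ, against 3503 lower and 2977 higher and 2248 lower and 2484 higher as reported. Of the other values of single probe sets, 588 kept their direction and call, 39 moved, 20 lost and 6 gained a call in those settings. As each array was left out, 24 lost and 9 gained one. Probe sets near the lower end of signal, such as Glp1r and Hpcal4 in irradiated lung, limit how large a fall can be read.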

Other observations

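Among the genes that flank the members on the RefSeq map, Dnah8, a dynein heavy chain gene of cilia next to Glp1r, fell by 1.03 in C57BL6/J (adjusted p = 0.0417) and by 1.41 in C3H/HeJ (adjusted p = 0.00144), and differed by −0.72 in A/J (adjusted p = 0.052). Mmrn1, which encodes a protein of platelets and endothelium and lies next to Gprin3, fell by 0.70 in C57BL6/J (adjusted p = 0.0166) and by 0.69 in C3H/HeJ (adjusted p = 0.00375), and differed by −0.17 in A/J. Heyl, a Notch target gene next to Hpcal4, rose in A/J by 0.59 (adjusted p = 0.00898), and Pak6, a kinase gene next to Ankrd63, rose in A/J by 1.14 (adjusted p = 0.0192). None of the other 10 flanking genes measured was called in any strain.

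The paraspeckle scaffold RNA Neat1 rose in A/J by 0.50 (adjusted p = 0.0256) on 1428083_at and differed by −0.03 on 1442881_at, while Ncald was lower in A/J and C3H/HeJ on each of its 3 probe sets, by −0.94 to −1.75 in A/J and by −0.83 to −1.68 in C3H/HeJ.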
